A study of Xenopus laevis with 90 samples.

Results

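The T-box and Sox genes are DNA-binding transcription factors that divide the early frog embryo into germ layers. Every gene whose symbol began with *tbx*, *tbr*, *eomes*, *vegt* or *mga*, or with *sox* and a digit, was taken from the TPM tables of both frogs, with the *sox2* and *sox3* copies left out. This gave 66 genes of the 36504 measured in both tables. Of these, 5 (*tbrg1.L*, *tbrg4.L*, *tbxa2r.L*, *tbxa2r.S* and *tbxas1.L*) share the first letters but encode no T-box protein (among them are the thromboxane receptor and thromboxane synthase), and they were counted apart. The other 61 were 31 T-box and 30 Sox genes, of which 8 were grouped by known role as endoderm genes, 10 as mesoderm genes, 18 as ectoderm genes and 25 as other. Each gene was placed in a single group, and *vegt*, which acts in both endoderm and mesoderm, was counted with mesoderm. *Xenopus laevis* carries 2 related subgenomes, and most genes exist as an L and an S copy.

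Total RNA from *X. laevis* embryos was sequenced at 5.5, 6.5 and 7.5 h post-fertilization (hpf), a span that covers zygotic genome activation, to ask how histone H3 lysine 4 trimethylation (H3K4me3, a mark of active promoters) before activation bears on transcription. Treated embryos were injected at the one-cell stage with mRNA for the demethylase Kdm5bwt (11 ng), for H3.3K4M (345 pg), a histone variant with methionine in place of the methylated lysine, and for TIR1 (5 ng), a plant protein that marks the tagged proteins for breakdown once auxin is given. Control embryos received catalytically inactive Kdm5bci (4 ng), H3.3wt (345 pg) and TIR1 (5 ng). Wild type embryos were not injected and received no auxin. Auxin (IAA, 500 µM) was given from 4.5 hpf in the Treated+IAA and Control+IAA groups. In Treated+IAA embryos this limited depletion to a window before activation. Without auxin, in the Treated−IAA and Control−IAA groups, the injected proteins stayed, and depletion was persistent in Treated−IAA embryos. The Kdm5b mRNA dose differed between treated and control embryos. Each of these 15 combinations of treatment and stage had 3 pools of 3 sibling embryos from each of 2 frogs, 90 libraries in all. The study regards the frogs as biological and the pools as technical replicates, so the p-values given here measure the spread between pools of siblings.

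T-box proteins share a DNA-binding domain first described in Brachyury (*tbxt*). In the frog, *vegt* RNA is laid down in the vegetal part of the egg, and its protein starts the programme of endoderm and mesoderm, acting with Nodal signals. *eomes* (Eomesodermin), *tbxt* and *tbx6* are switched on in the future mesoderm and act downstream. Sox proteins bind DNA through an HMG box. The SoxF proteins Sox17, Sox7 and Sox18 belong to endoderm and later to blood vessels, and *sox17* is a classic endoderm gene directly under the control of VegT and Nodal. SoxB2 (*sox21*), SoxC (*sox4*, *sox11*, *sox12*) and SoxE (*sox8*, *sox9*, *sox10*) genes are known for their parts in neural tissue and neural crest, and *sox15* is expressed in early frog ectoderm.

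The deposited tables differ in overall level between stages. In wild type embryos the median gene of frog 1 lay 0.61 (6.5 hpf) and 0.39 (7.5 hpf) higher than at 5.5 hpf on the log2 scale, and that of frog 2 lay −0.34 and −0.69 away. Each library was therefore divided by a median-ratio factor computed within its frog (0.658 to 1.40 in frog 1 and 0.661 to 1.38 in frog 2). Levels below are scaled TPM, and all changes are relative to the median gene. The test was limma on log2(scaled TPM + 1) with all 45 libraries of a frog in 1 fit and Benjamini-Hochberg adjustment over all genes, and a gene was called at an adjusted p under 0.05. The added 1 damps the changes of low genes. The embryos were whole, so fewer cells of a type and less RNA per cell cannot be told apart. Of the 61 genes, 31 in frog 1 and 29 in frog 2 reached 1 scaled TPM in at least 3 libraries and were tested, 27 of them in both frogs. Values of 2 frogs come from separate tables, so no test was run across them. A fit of only the 6 libraries of a comparison kept 6 of the 50 treated against control calls of members, those of *tbxt.S*, *sox17a.S* (window, 7.5 hpf), *sox21.L* (window and persistent, 6.5 hpf), *eomes.L* and *sox9.S* (persistent, 6.5 hpf), all in frog 2.

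In wild type embryos 9 genes already had at least 5 scaled TPM at 5.5 hpf in both frogs and are called maternal here. These were *vegt.L*, *vegt.S*, *sox15.L*, *sox11.L*, *sox11.S*, *sox7.L*, *sox13.S*, *mga.L* and *sox4.L*. Their levels covered a wide range. *vegt.L* had the highest mean of all 61 genes over the wild type libraries (244), followed by *sox15.L* (221), *vegt.S* (178), *sox11.S* (101), *sox7.L* (70.6) and *sox11.L* (65.2). At 5.5, 6.5 and 7.5 hpf, *vegt.L* averaged 257 ± 14.3, 235 ± 24.7 and 304 ± 20.1 in frog 1 and 201 ± 23.5, 214 ± 40.3 and 253 ± 15.5 in frog 2 (SD, n = 3). *mga.L*, which encodes a protein with both a T-box and a Max-binding domain, stayed between 14.0 and 15.4 at every stage in both frogs. Among the maternal genes *sox15.L* differed most between frogs in its course, with 165 ± 22.4, 146 ± 7.53 and 254 ± 21.4 in frog 1 and 155 ± 16.8, 232 ± 9.04 and 371 ± 21.0 in frog 2.

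A further 10 genes were under 1 scaled TPM at 5.5 hpf and at 1 or more at 7.5 hpf in both frogs, and are called zygotic here. They were *eomes.L*, *eomes.S*, *sox17a.L*, *tbx6.L*, *tbxt.L*, *tbx3.S*, *sox1.S*, *sox9.S*, *sox21.L* and *sox21.S*. The times at which they appeared were not the same. *eomes.L* was at 0.0155 ± 0.0268 at 5.5 hpf, at 2.03 ± 0.528 at 6.5 hpf and at 65.8 ± 11.3 at 7.5 hpf in frog 1. *tbx6.L* was still at 0.102 ± 0.047 at 6.5 hpf in frog 1 and at 0.136 ± 0.1 in frog 2, and reached 3.56 ± 1.15 and 1.69 ± 0.049 at 7.5 hpf. *sox9.S* had 1.8 ± 0.845 at 6.5 hpf and 3.07 ± 0.372 at 7.5 hpf in frog 1, against 3 ± 0.3 and 3.35 ± 0.546 at the same times in frog 2, where it was already near its later level at 6.5 hpf. Another 14 genes fell between these classes. They include *tbxt.S*, *sox17a.S* and both *sox17b.1* copies, which were at 1 to 3 scaled TPM in wild type embryos at 5.5 hpf in at least 1 frog.

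**Figure D1:**
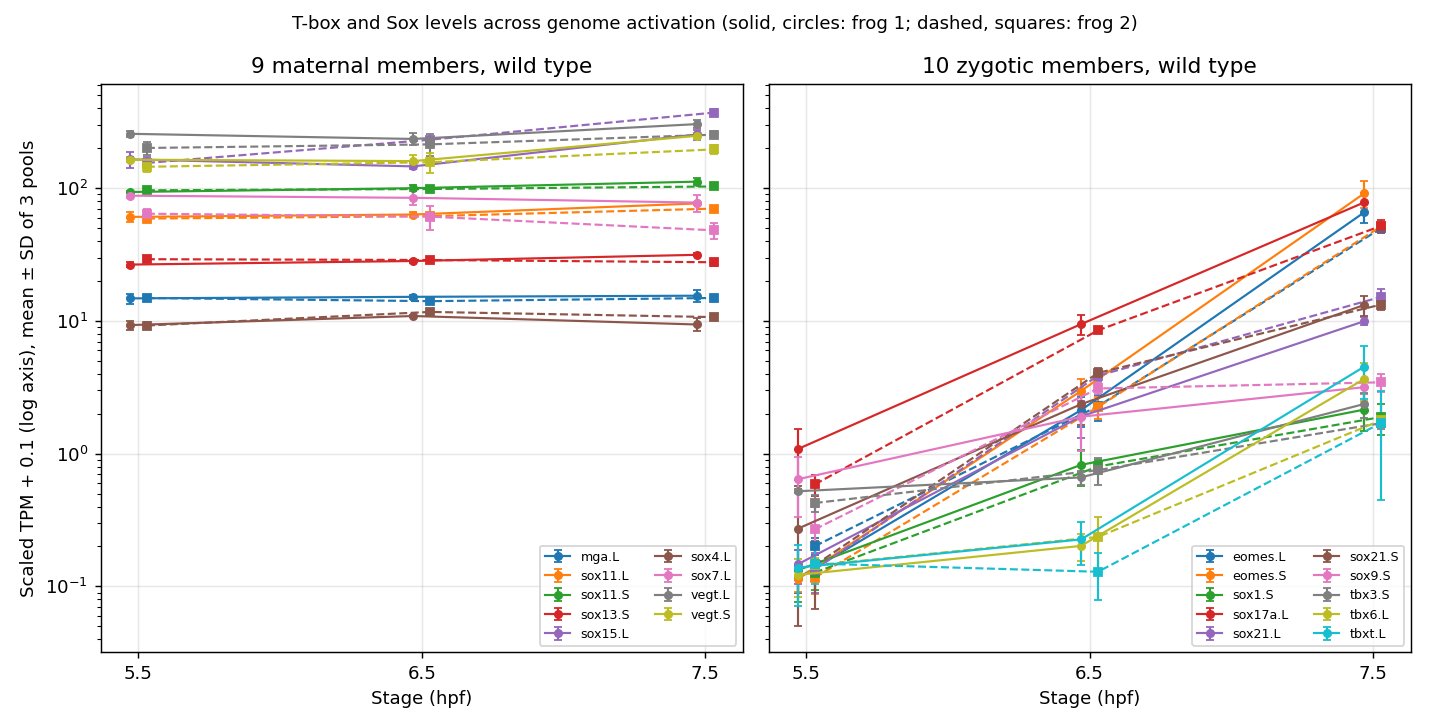
Level of 9 maternal (left) and 10 zygotic (right) T-box and Sox genes in wild type embryos at 5.5, 6.5 and 7.5 hpf, as scaled TPM + 0.1 on a log axis. Points are means of 3 pools and bars the SD (cut short downwards where they would pass zero), with frog 1 as circles and solid lines and frog 2 as squares and dashed lines. The maternal genes stand at 5 or more from 5.5 hpf on, with *sox15.L* of frog 2 at 371 by 7.5 hpf, while *eomes.L* of frog 1, under 0.1 at 5.5 hpf, stands at 65.8 by 7.5 hpf.

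Tested against 5.5 hpf, 11 of the 31 genes rose in wild type embryos at 6.5 hpf in frog 1 and 14 of 29 in frog 2, where 7.68% and 11.4% of all genes tested rose. At 7.5 hpf 22 rose in frog 1 and 20 in frog 2 (21.6% and 24.3% of all genes), 17 of them in both frogs. The zygotic genes are among these by the way they were chosen. Of the 9 maternal genes, 5 in frog 1 and 4 in frog 2 rose at 7.5 hpf. *vegt.S* rose in both frogs, by 0.60 ± 0.10 and 0.43 ± 0.09 (log2 change ± SE), and so did *sox11.L*, by 0.34 ± 0.10 and 0.25 ± 0.07. The endoderm gene *sox7.L* fell in frog 2 (−0.41 ± 0.10, adjusted p = 0.00116), where it had 55.2, 46.4 and 42.7 at 7.5 hpf and 69.6, 58.7 and 64.3 at 5.5 hpf. In frog 1 its change was −0.18 (adjusted p = 0.222). *sox9.L* fell in frog 2 as well (−0.52), where 22.4% of all genes fell. The split in frog 2 depends on the scaling: without it 9 members were lower and 12 higher at 6.5 hpf (0 and 14 with it), and 11 lower and 15 higher at 7.5 hpf (2 and 20 with it). In frog 1 no member was lower either way, and 28 rose at 6.5 hpf without scaling. Without scaling *vegt.L*, *vegt.S*, *sox11.L* and *sox4.S* turned negative in frog 2 at 7.5 hpf (−0.47, −0.37, −0.55 and −0.15), and so did *sox4.L* at 6.5 hpf (−0.05).

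On the scale of log2(scaled TPM + 1), which damps low genes, *tbxt.S* (Brachyury) had the largest loss among the T-box genes tested at 7.5 hpf. This held in both schemes and both frogs. RNA of *tbxt* came mainly from the S copy (chromosome 5S, 46833750 to 46841009 of assembly Xenopus_laevis_v10.1). The L copy supplied 14.1% ± 3.37 of it at 7.5 hpf in the wild type pools of frog 1 (SD, n = 3), although reads can be shared between such similar copies. At 7.5 hpf *tbxt.S* had 3.5, 11.5 and 6.03 scaled TPM in the Treated+IAA pools of frog 1, against 14.2, 14.7 and 19.5 in the Control+IAA pools. The same gene in frog 2 had 2.27, 2.5 and 2.56 in Treated+IAA pools, against 6.58, 7.99 and 7.46 in Control+IAA pools. The groups did not overlap in either frog. *tbxt.S* thus stood at 43.4% and 33.3% of its control after window depletion (log2 change −1.21 ± 0.25 in frog 1 and −1.27 ± 0.23 in frog 2, adjusted p = 0.0038 and 0.000477). In frog 1 the call was lost without the first Treated+IAA pool, and in frog 2 it was kept whichever pool was left out. At 6.5 hpf *tbxt.S* was not called in any depletion comparison (−0.37 to −0.01).

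Under persistent depletion *tbxt.S* had 6.41, 7.01 and 4.59 in Treated−IAA pools of frog 1, against 10.2, 9.65 and 20.2 in Control−IAA pools. In frog 2 the values were 1.1, 2.04 and 1.65 in Treated−IAA pools, against 2.68, 5.24 and 12.6 in Control−IAA pools. The levels were 44.9% and 23.3% of control, with log2 changes of −0.98 ± 0.25 and −1.40 ± 0.23 (adjusted p = 0.026 and 0.000118). In both frogs the third Control−IAA pool at 7.5 hpf was far above the other 2 of its group. This pool also had the least RNA of the globin gene *hbg1.L* in its group. The study's demethylase and histone constructs carried frog globin sequences, and wild type pools had at most 0.829 TPM of *hbg1.L*. These Control−IAA pools had 10801.9, 14260.1 and 5686.43 TPM of it in frog 1 and 6149.67, 2712.29 and 2239.64 in frog 2. Whether the amount of injected RNA bears on *tbxt.S* levels was not tested. Without the third Control−IAA pool the call was lost in frog 1 and kept in frog 2, where the change was nearer to zero (−0.90). In frog 1 it was also lost without the first or the third Treated−IAA pool, with no scaling and with a pseudocount of 0.1. The L copy was at a much lower level, with 0.0288, 0.0411 and 0 in Treated−IAA pools of frog 2, against 0.302, 0.298 and 1.51 in Control−IAA pools. It was called in 1 of the 4 comparisons at 7.5 hpf (−0.66 ± 0.21, adjusted p = 0.0474, lost without any of 4 of the 6 pools), and the others gave −0.58, −0.65 and −0.72. The call was also lost with no filter and in the fit of 6 libraries alone. Among the compared pools only the third Control−IAA pool reached 1 scaled TPM. As a percent of control, *tbxt.L* of frog 1 stood lower than *tbxt.S* at 7.5 hpf. It was at 30.1% after window depletion, with overlapping pools, and at 27.6% under persistent depletion, with treated pools below control pools. *tbxt.2.S*, whose position on chromosome 5L is 66109 bases from *tbxt.L*, did not reach the filter. Its means at 7.5 hpf in frog 1 were 0.15 in Treated+IAA and 0.345 in Control+IAA embryos, and 1.08 in wild type embryos.

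*tbx6.L*, a T-box gene of paraxial and ventral mesoderm, was low and late, and was called in 3 of the 4 comparisons at 7.5 hpf. At 7.5 hpf it had 0.877, 1.56 and 1.18 in Treated+IAA pools of frog 1, against 3.03, 2.36 and 3.11 in Control+IAA pools. The Treated+IAA pools of frog 2 had 0.459, 0.353 and 0.816, against 1.21, 1.34 and 2.04 in Control+IAA pools. No treated pool reached a control pool. The log2 changes were −0.80 ± 0.15 and −0.71 ± 0.16 (adjusted p = 0.00176 and 0.00517). The frog 1 call was kept whichever pool was left out, and the frog 2 call was lost without the second Treated+IAA or the third Control+IAA pool, while a pseudocount of 0.1 ended both. Under persistent depletion *tbx6.L* fell in frog 1 (−0.66 ± 0.15, adjusted p = 0.013), a call lost without the third Control−IAA pool, without the first or the third Treated−IAA pool, with no scaling and with the smaller pseudocount. Its change was −0.31 ± 0.16 in frog 2 (adjusted p = 0.295), where the Control−IAA pools spread over 0.331, 0.667 and 1.91. Its neighbour *tbx6r.L*, 11649 bases away on chromosome 9_10L, was not called in any depletion comparison. *tbx6r.L* averaged 2.74 ± 0.999 in Treated+IAA and 1.77 ± 0.377 in Control+IAA embryos of frog 1 at 7.5 hpf.

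Both *eomes* copies (*eomes.L* on chromosome 6L, 50107186 to 50113196, and *eomes.S* on 6S, 40890399 to 40896123) were called already at 6.5 hpf, the stage at which they first appeared. At 6.5 hpf *eomes.L* had 1.2, 2 and 0.886 in Treated−IAA pools of frog 1, against 3.4, 3.99 and 4.1 in Control−IAA pools. In frog 2 it had 0.524, 0.349 and 0.524 in Treated−IAA pools, against 2.35, 3.36 and 2.42 in Control−IAA pools. These are 35.6% and 17.2% of control (−1.06 ± 0.17 and −1.33 ± 0.15, adjusted p = 0.00109 and 1.25e-07). *eomes.S* stood at 34.6% and 15.6% of control (−1.23 ± 0.18 and −1.26 ± 0.20, adjusted p = 0.000346 and 7.52e-05). All 4 of these calls were kept when any single pool was left out.

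At 7.5 hpf both copies were again lower under persistent depletion, with log2 changes nearer to zero than at 6.5 hpf; the difference between stages was not tested. *eomes.L* had 46.6, 55 and 39.6 in Treated−IAA pools of frog 1, against 68.7, 70.2 and 87.4 in Control−IAA pools, and was at 62.4% of control. Frog 2 embryos had 17.2, 25.1 and 24.1 in Treated−IAA pools, against 32.8, 32.3 and 58.7 in Control−IAA pools, and *eomes.L* was at 53.6%. The changes were −0.67 ± 0.17 and −0.83 ± 0.15 (adjusted p = 0.0234 and 0.0003), and those of *eomes.S* were −0.68 ± 0.18 and −0.70 ± 0.20 (adjusted p = 0.0404 and 0.0265). In frog 1 the call of *eomes.L* was lost without the third Control−IAA pool and without the first or the third Treated−IAA pool, and that of *eomes.S* without any of 5 pools. In frog 2 that of *eomes.S* was lost without the first Treated−IAA or the third Control−IAA pool. No scaling and a pseudocount of 0.1 each ended the calls of both copies in frog 1 and of *eomes.S* in frog 2, and testing all genes without a filter ended that of *eomes.S* in frog 1.

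Under window depletion both *eomes* copies were called at 6.5 hpf in frog 2, and *eomes.S* alone at 7.5 hpf in frog 1. The difference between frogs was not tested. At 6.5 hpf both copies fell in frog 2, by 0.70 and 0.87 on the log2 scale (*eomes.L* adjusted p = 0.00457, *eomes.S* 0.0143), and both calls were lost without the first Treated+IAA or the third Control+IAA pool, that of *eomes.S* also without the third Treated+IAA pool. In frog 1 the changes were −0.53 and −0.74 (adjusted p = 0.129 and 0.0632). Treated pools of frog 1 lay below control pools for both copies at that stage (60.6% and 54.5% of control). At 7.5 hpf *eomes.S* fell in frog 1 (−0.84 ± 0.18, adjusted p = 0.00744), with 62.5, 106 and 82.5 in Treated+IAA pools, against 150, 152 and 138 in Control+IAA pools, and the call was lost without the first Treated+IAA pool and with a pseudocount of 0.1. *eomes.L* of frog 1 was at 66.5% of control at that stage, with treated pools below control pools, and was not called. In frog 2 at 7.5 hpf *eomes.S* gave −0.21 ± 0.20 and *eomes.L* −0.28 ± 0.15, and neither passed the test. Treated pools of *eomes.L* lay below control pools there (81.5% of control), and those of *eomes.S* overlapped (85.3%).

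**Figure D2:**
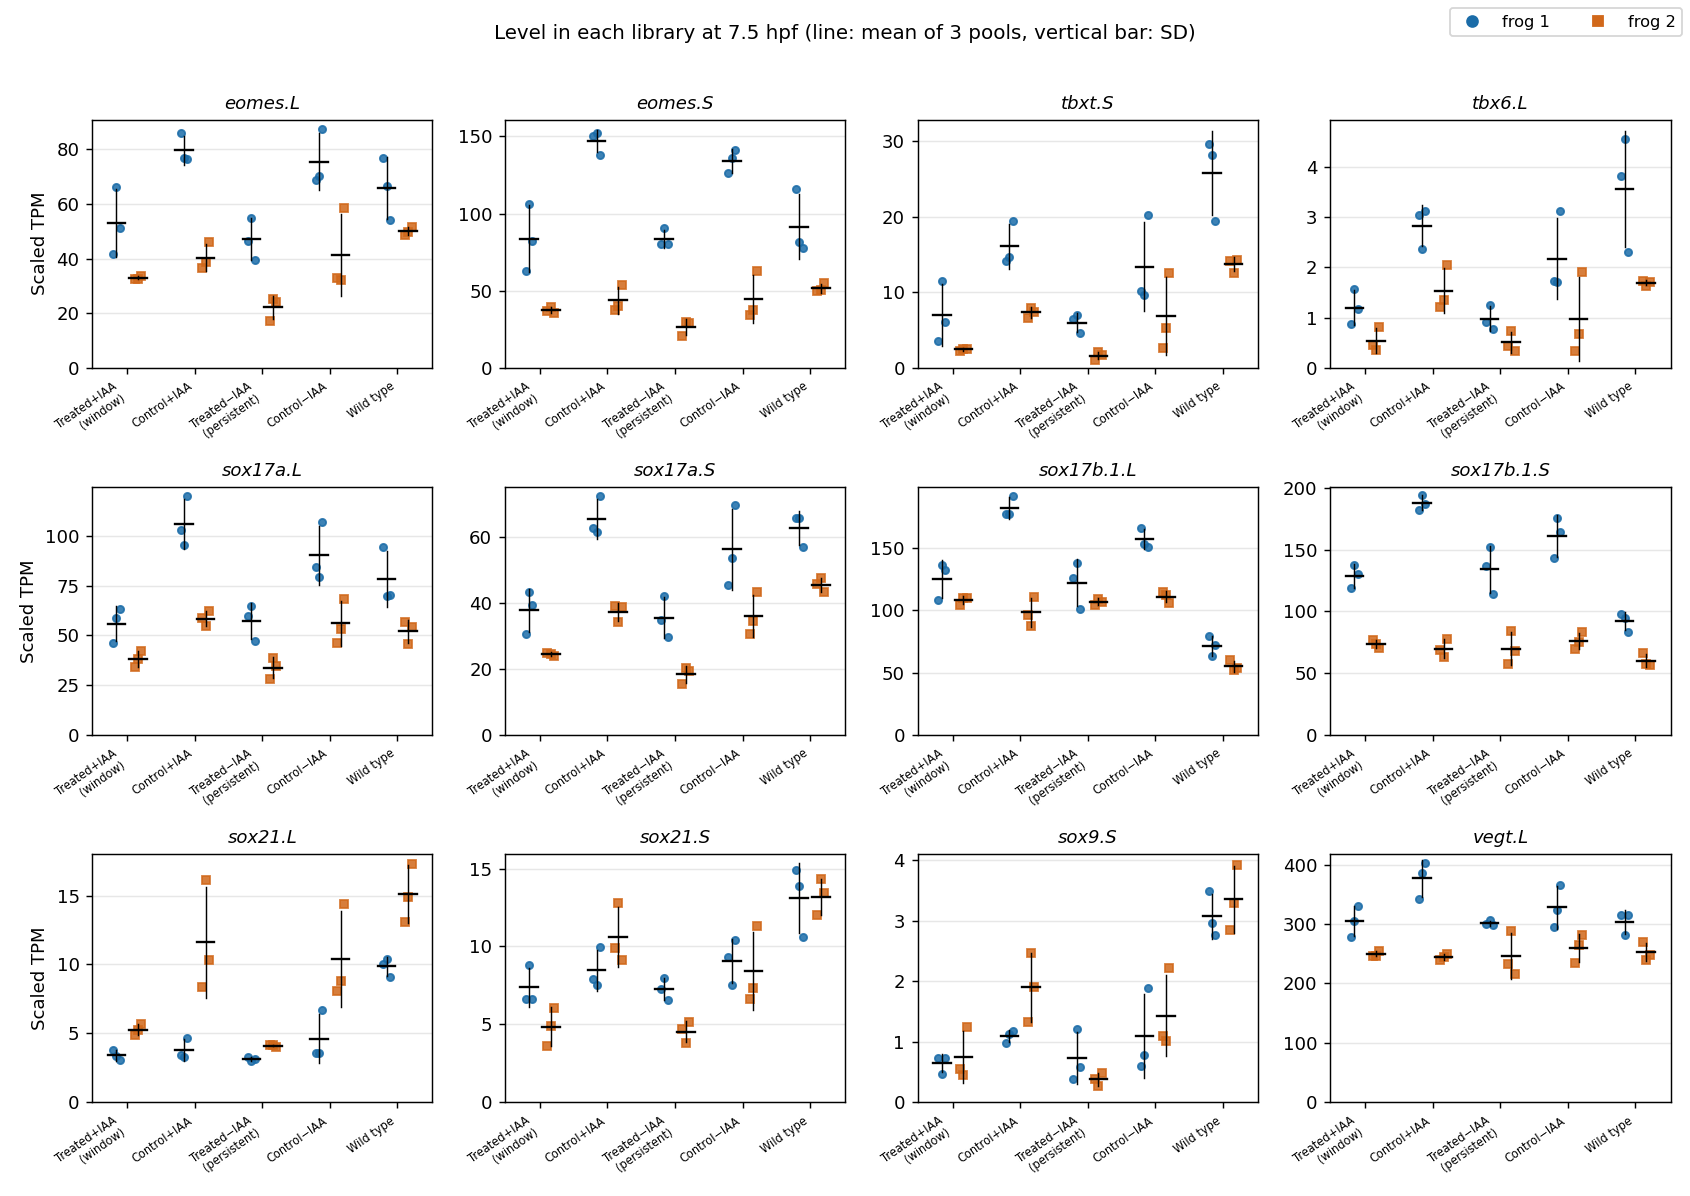
Scaled TPM of 12 T-box and Sox genes in every library at 7.5 hpf, by treatment, for frog 1 (blue circles) and frog 2 (orange squares). Short lines are means of 3 pools and vertical bars the SD. *tbxt.S*, *tbx6.L* and *sox17a* are lower in Treated+IAA than in Control+IAA embryos of both frogs, and *sox17b.1* has a higher mean in every injected group than in wild type embryos. *sox21* and *sox9.S* separate treated from control embryos in both schemes in frog 2. In frog 1 only *sox9.S* (window) and *sox21.L* (persistent) do so.

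The maternal T-box RNAs did not pass the test in any depletion comparison. At 7.5 hpf *vegt.L* had 279, 305 and 330 in Treated+IAA pools of frog 1, against 342, 386 and 402 in Control+IAA pools, and *vegt.S* had 238, 255 and 277, against 300, 325 and 352. The changes were −0.31 ± 0.11 and −0.34 ± 0.10 (adjusted p = 0.209 and 0.0654), and treated and control pools did not overlap. At 5.5 hpf in the same frog *vegt.L* had 164, 187 and 193 in Treated+IAA pools, against 252, 253 and 236 in Control+IAA pools (−0.45 ± 0.11, adjusted p = 0.0664). In frog 2 at 7.5 hpf *vegt.L* had 247, 247 and 255 in Treated+IAA pools, against 240, 244 and 250 in Control+IAA pools, and changed by 0.03 ± 0.10. At 5.5 hpf in frog 2 treated pools lay below control pools for *vegt.L* after window depletion (86.1% of control). They did so for both copies under persistent depletion (*vegt.L* 85.9%, *vegt.S* 85.2%), while *vegt.S* overlapped after window depletion (89.1%). Under persistent depletion in frog 1 both copies overlapped at 5.5 hpf (104% and 103%). At 7.5 hpf *vegt.S* there lay apart (82.6%) and *vegt.L* overlapped (91.8%). *mga.L* changed by between −0.15 and 0.07 in the depletion comparisons at 6.5 and 7.5 hpf, with an SE of 0.07.

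Among the endoderm genes, *sox17a* fell in both frogs, and *sox17b.1* was called in frog 1. *sox17a* and *sox17b.1* lie side by side on both subgenomes. On chromosome 6L, *sox17a.L* covers 122899051 to 122901477 and *sox17b.1.L* 122911770 to 122913812, with 10292 bases between them. On 6S the S copies are 12844 bases apart. The genes are close paralogues, and how reads were divided among the 4 copies was not tested. At 7.5 hpf *sox17a.L* had 46, 58.5 and 63 in Treated+IAA pools of frog 1, against 103, 95.6 and 120 in Control+IAA pools. In frog 2 it had 34.3, 38.4 and 42.2 in Treated+IAA pools, against 58.7, 54.5 and 62.1 in Control+IAA pools. The 2 groups were apart in both frogs, at 52.5% and 65.5% of control (−0.92 ± 0.19 and −0.60 ± 0.16, adjusted p = 0.00555 and 0.0151). The frog 1 call was lost without the first Treated+IAA or the third Control+IAA pool, and the frog 2 call with no scaling and without the first or the second Treated+IAA or the third Control+IAA pool. Both were also lost with a pseudocount of 0.1 and in the fit of 6 libraries alone.

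*sox17a.S* fell in frog 2 in both schemes at both later stages, most at 6.5 hpf under persistent depletion, where it had 5.17, 3.42 and 5.72 in Treated−IAA pools, against 12.1, 12.8 and 9.61 in Control−IAA pools (−1.13 ± 0.15, adjusted p = 5.73e-06). Both persistent calls were kept whichever pool was left out, and both window calls were lost without the third Control+IAA pool, among others, with no scaling and with a pseudocount of 0.1. The smaller pseudocount also ended the persistent call at 7.5 hpf. In frog 1 its changes at 7.5 hpf were −0.79 ± 0.23 (window) and −0.64 ± 0.23 (persistent), and neither was called (adjusted p = 0.0723 and 0.185). *sox17a.L* fell under persistent depletion in frog 2, by 0.98 at 6.5 hpf and by 0.71 at 7.5 hpf (adjusted p = 7.59e-05 and 0.00387), the later call being lost without the third Control−IAA pool and with a pseudocount of 0.1, while in frog 1 it gave −0.36 and −0.65 (adjusted p = 1 and 0.0795).

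In frog 2 *sox17b.1* passed no depletion test. At 7.5 hpf *sox17b.1.L* had 104, 110 and 110 in Treated+IAA pools, against 96, 87.7 and 111 in Control+IAA pools, and 104, 109 and 107 in Treated−IAA pools, against 115, 112 and 106 in Control−IAA pools. Its changes were 0.14 ± 0.12 and −0.06 ± 0.12, and those of *sox17b.1.S* were 0.08 ± 0.12 and −0.13 ± 0.12. At 7.5 hpf the values overlapped and no change was called. At 6.5 hpf in frog 2 *sox17b.1.S* was at 76.4% (window) and 75.9% (persistent) of control, with treated pools below control pools. *sox17b.1.L* was at 71.6% under persistent depletion, also with pools apart, and at 86.3% after window depletion, with overlapping pools. None of these was called. In frog 1 both copies lay lower after window depletion at 7.5 hpf (−0.54 each), and *sox17b.1.S* was called (129 ± 9.77 in Treated+IAA and 188 ± 5.94 in Control+IAA embryos, adjusted p = 0.0332), a call that was lost without any of 5 of the 6 pools, with no scaling and with a pseudocount of 0.1. At 6.5 hpf in frog 1 *sox17b.1.L* was at 70% (window) and 63.4% (persistent) of control, with pools apart. *sox17b.1.S* was at 66.8% (window, overlapping pools) and 72.7% (persistent, pools apart). Under persistent depletion at 7.5 hpf *sox17b.1.L* was at 77.6%, with pools apart, and *sox17b.1.S* at 83.4%, with overlapping pools. None of these other changes in frog 1 was called.

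Within a library the ratio of *sox17a* to *sox17b.1* (both copies summed) does not depend on scaling. At 7.5 hpf this ratio was 0.34, 0.37 and 0.39 in Treated+IAA pools of frog 1, against 0.46, 0.42 and 0.51 in Control+IAA pools. In frog 2 it was 0.33, 0.34 and 0.37 in Treated+IAA pools, against 0.59, 0.59 and 0.53 in Control+IAA pools. Under persistent depletion it was 0.36, 0.37 and 0.36 in Treated−IAA pools of frog 1, against 0.42, 0.40 and 0.56 in Control−IAA pools, and 0.27, 0.30 and 0.31 in Treated−IAA pools of frog 2, against 0.42, 0.47 and 0.59 in Control−IAA pools. Every treated pool was below every control pool of its frog in both schemes at 7.5 hpf. Wild type embryos had the highest ratios, 0.90, 0.86 and 0.82 in frog 1 and 0.81, 0.85 and 0.88 in frog 2. At 6.5 hpf the treated and control pools of frog 1 were close in ratio after window depletion (0.30 ± 0.03 in Treated+IAA and 0.33 ± 0.01 in Control+IAA embryos). Under persistent depletion frog 1 went the other way, with 0.32, 0.33 and 0.32 in Treated−IAA pools, against 0.28, 0.30 and 0.32 in Control−IAA pools. In frog 2 the ratio was 0.32 ± 0.07 in Treated+IAA and 0.43 ± 0.04 in Control+IAA embryos, and 0.24 ± 0.01 in Treated−IAA and 0.40 ± 0.04 in Control−IAA embryos. This ratio was computed after the values had been seen and is given with no test.

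**Figure D3:**
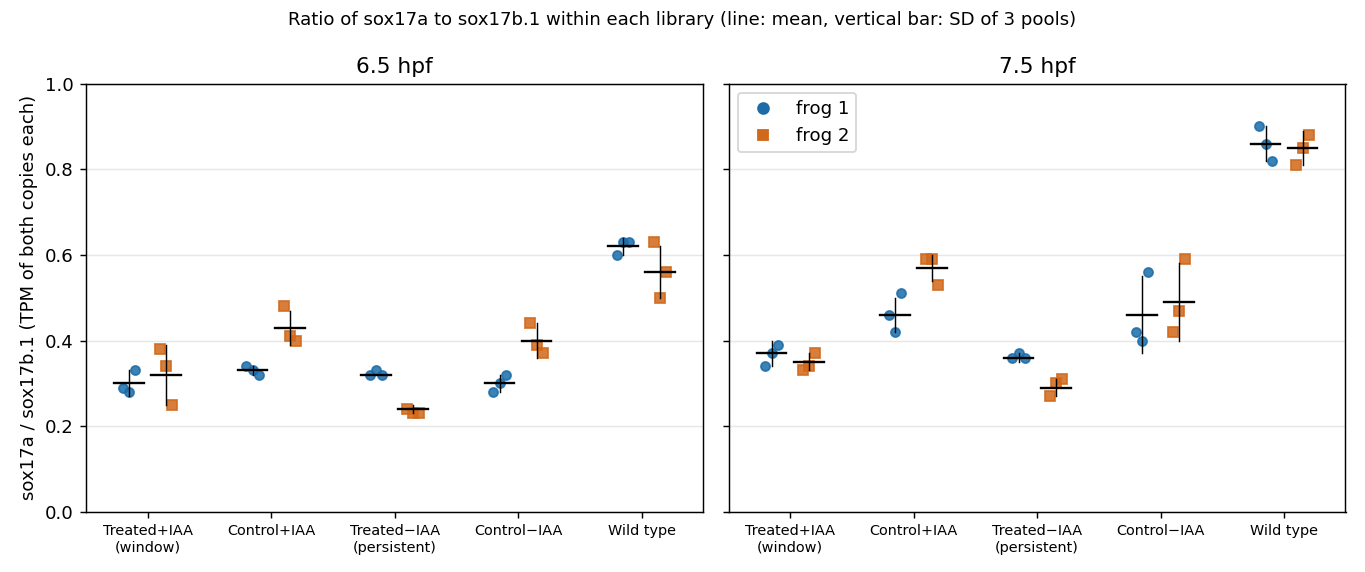
Ratio of *sox17a* to *sox17b.1* TPM (L and S copies summed) in every library at 6.5 and 7.5 hpf, by treatment, for frog 1 (blue circles) and frog 2 (orange squares), with means of 3 pools as lines and the SD as vertical bars. At 7.5 hpf wild type embryos sit near 0.86, and treated embryos sit below their controls in both schemes and both frogs.

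*sox7.L*, the only abundant SoxF gene besides *sox17*, was not called in any depletion comparison. At 7.5 hpf it had 72.7, 68.7 and 76.5 in Treated+IAA pools of frog 1, against 63.5, 73.3 and 68.7 in Control+IAA pools, and 44.9, 48.4 and 45.6 in Treated+IAA pools of frog 2, against 45.2, 41.7 and 45 in Control+IAA pools. Its changes at 6.5 and 7.5 hpf lay between −0.10 and 0.21. *sox7.L* gave nearly all *sox7* RNA (99.2% and 99.4% in wild type embryos of frog 1 and frog 2 at 7.5 hpf), and *sox18.L* and *sox18.S* stayed at or under 0.121 in every group.

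At the earliest stage the calls were confined to frog 1 and *sox17b.1*. *sox17b.1.L* had 3.45, 3.24 and 4.18 in Treated+IAA pools at 5.5 hpf, against 7.22, 8.89 and 6.43 in Control+IAA pools, and *sox17b.1.S* had 2.56, 1.74 and 2.98, against 7.03, 5.85 and 7.6. The changes were −0.88 ± 0.19 and −1.20 ± 0.14 (adjusted p = 0.0243 and 2.37e-06). In this case the Control+IAA pools stood out: *sox17b.1.S* averaged 3.2 in Control−IAA and 2.2 in wild type embryos of the same frog and stage. These 2 genes were all the members called of 31 (0.241% of all genes tested were lower). The member count was 1 without the first or second pool of either group and 0 in a fit of the 6 libraries alone. In frog 2 limma called 0 of 29 members (4 had an unadjusted p under 0.05), beside 0.0147% of all genes. Persistent depletion at 5.5 hpf gave 0 calls in either frog by limma, with 3 members in each at an unadjusted p under 0.05 (0.13% and 0.0147% of all genes were called).

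Ectoderm genes were called in frog 2. In frog 1 limma called 0 of the 10 tested in either scheme at 7.5 hpf (0 and 2 at an unadjusted p under 0.05), where 1.14% and 1.45% of all genes were lower, and the difference between frogs was not tested. *sox21*, a SoxB2 repressor of neural progenitor genes, was on by 6.5 hpf. *sox21.L* (chromosome 2L, 127735398 to 127738176) then had 0.638, 1.02 and 0.806 in Treated+IAA pools of frog 2, against 2.34, 2.3 and 2.33 in Control+IAA pools. Without auxin it had 0.787, 0.744 and 0.683 in Treated−IAA pools, against 3.44, 2.75 and 2.46 in Control−IAA pools. The levels were 35.4% and 25.6% of control (−0.87 ± 0.15 and −1.15 ± 0.15, adjusted p = 0.000282 and 1.72e-06). At 7.5 hpf the changes were −0.96 ± 0.15 and −1.12 ± 0.15 (adjusted p = 8.21e-05 and 9.08e-06). All 4 calls of *sox21.L* were kept when any pool was left out. In frog 2 *sox21.S* fell in the same 4 comparisons, by between 0.74 and 1.04 on the log2 scale, and its persistent call at 7.5 hpf was lost without the third Control−IAA or the second Treated−IAA pool. Its window call at 6.5 hpf was lost without the first Treated+IAA or the second Control+IAA pool, and both calls at 7.5 hpf with a pseudocount of 0.1.

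In frog 1 *sox21* was not called in any depletion comparison. At 7.5 hpf *sox21.L* had 3.81, 3.35 and 3.04 in Treated+IAA pools, against 3.42, 3.3 and 4.7 in Control+IAA pools, and the change was −0.12 ± 0.18. Under persistent depletion *sox21.L* was at 68.2% of control at that stage, with treated pools below control pools. At 6.5 hpf it was at 69.2% (window) and 56.2% (persistent) of control, with overlapping pools. *sox21.S* of frog 1 was at 63.9% to 95.8% of control at these stages, with overlapping pools. At 7.5 hpf Control−IAA pools of frog 1 had 3.57, 3.59 and 6.7 of *sox21.L*, against 10, 10.4 and 9.11 in wild type pools. In frog 2 the Control−IAA pools had 8.04, 8.82 and 14.4, against 13.1, 14.9 and 17.3 in wild type pools. Whether these control levels bear on the calls was not tested.

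*sox9.S*, a SoxE gene of neural crest and cartilage, was called in the same 4 comparisons of frog 2. At 6.5 hpf it had 0.35, 0.162 and 0.157 in Treated−IAA pools of frog 2, against 1.94, 2.3 and 1.46 in Control−IAA pools, which is 11.7% of control (−1.24 ± 0.16, adjusted p = 3.64e-06). Under window depletion it changed by −0.69 ± 0.16 at that stage (adjusted p = 0.0182), a call lost without the first or the third Treated+IAA or the first Control+IAA pool and with a pseudocount of 0.1. At 7.5 hpf the changes were −0.74 ± 0.16 (window) and −0.79 ± 0.16 (persistent), with adjusted p = 0.00424 and 0.00214. Without the third Control−IAA pool the persistent call at 7.5 hpf was lost, and the window call at that stage was lost without the second pool of either group. In frog 1 its changes at 6.5 and 7.5 hpf lay between −0.35 and −0.04, and no change was called. After window depletion at 7.5 hpf the treated pools of frog 1 did lie below the control pools (59.1% of control). The other copy, *sox9.L*, was not called in frog 2. With overlapping pools it was at 117% and 128% of control (window) and 92.9% and 149% (persistent) at 6.5 and 7.5 hpf. *sox8.L*, a second SoxE gene, passed the filter in frog 2 and not in frog 1, and had 0.22, 0.377 and 0.415 in Treated+IAA pools at 7.5 hpf, against 2.65, 1.61 and 1.11 in Control+IAA pools (−1.03 ± 0.17, adjusted p = 0.000161). *sox8.L* was chosen for its value, and it was called in no other depletion comparison. Its window call was lost in the fit of 6 libraries alone. The other copy, *sox8.S*, was tested in frog 1 only and was called in no depletion comparison.

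Of the maternal ectoderm genes *sox15.L* fell in frog 2. At 7.5 hpf it had 250, 280 and 319 in Treated+IAA pools, against 341, 387 and 359 in Control+IAA pools, and 291, 232 and 264 in Treated−IAA pools, against 320, 358 and 393 in Control−IAA pools. The groups did not overlap, and the changes were −0.36 ± 0.10 and −0.44 ± 0.10 (adjusted p = 0.0304 and 0.00607). The persistent call was lost without the second Treated−IAA or the third Control−IAA pool, and the window call without any of 4 of the 6 pools. In frog 1 they were −0.10 and −0.30 (adjusted p = 0.897 and 0.361). Of the SoxC genes *sox11.S* was called once, at 94.3, 95.8 and 88.5 in Treated+IAA pools of frog 2 at 7.5 hpf, against 106, 107 and 99.8 in Control+IAA pools (−0.17 ± 0.05, adjusted p = 0.0298), and its call was lost with no scaling and without any of 4 of the 6 pools. *sox11.L* and *sox4.L* were not called in any depletion comparison. *sox12.L* and *sox12.S* stayed at or under 0.454 in every group.

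**Figure D4:**
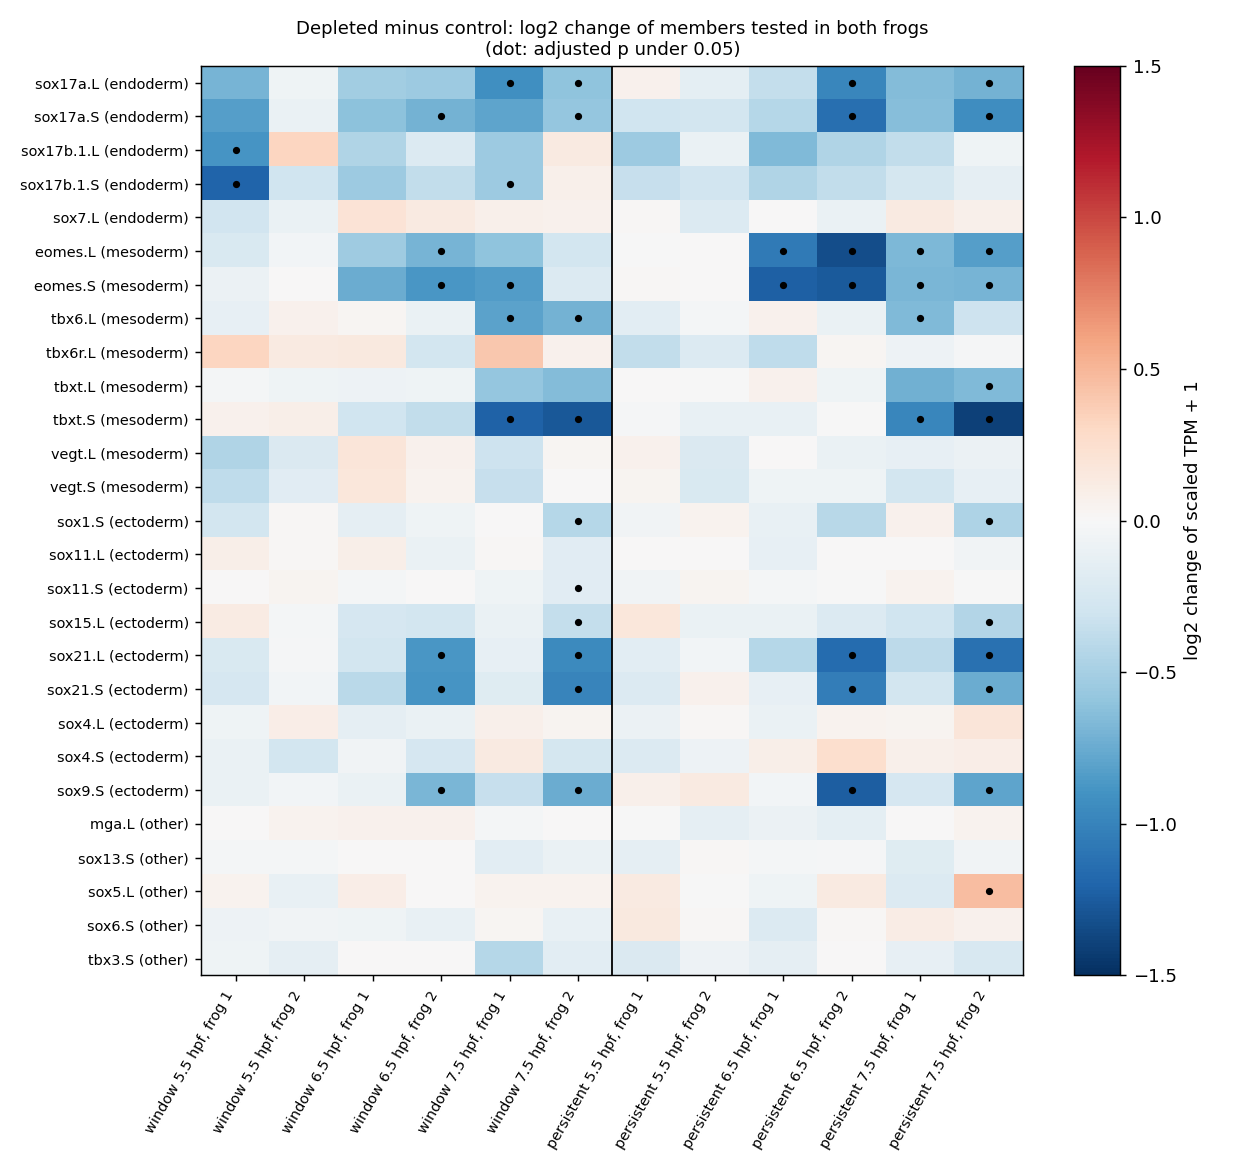
Log2 change of scaled TPM + 1, treated minus control, for the 27 T-box and Sox genes tested in both frogs (rows, by group) in the window and persistent comparisons at 5.5, 6.5 and 7.5 hpf for each frog (columns). Blue is lower in treated embryos, red is higher, and a dot marks an adjusted p under 0.05. The calls gather at 6.5 and 7.5 hpf in *sox17a*, *eomes*, *tbxt*, *tbx6.L*, *sox21* and *sox9.S*, while the rows of *vegt*, *sox7.L*, *sox4*, *mga.L* and *sox13.S* hold no dot.

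Counted over all members, window depletion at 7.5 hpf lowered 6 of 31 genes in frog 1 and 11 of 29 in frog 2, where 1.14% and 3.27% of all genes tested were lower, and raised 0 in either (0.632% and 3.48% of all genes were higher). Here and below, lowered and raised only give the direction against the reference group. The genes called in both frogs were *sox17a.L*, *tbx6.L* and *tbxt.S*. In frog 1 the 6 were 2 endoderm, 3 mesoderm and 1 other gene (*tbx3.L*, −0.57, a call lost without any of 3 pools), and in frog 2 the 11 were 2 endoderm, 2 mesoderm and 7 ectoderm genes. The 7 include *sox1.S* (−0.43, adjusted p = 0.0447). This call was lost with a replicate block, with no scaling, with a pseudocount of 0.1 and in the fit of 6 libraries alone. It was also lost without any single pool other than the second Control+IAA pool. Under persistent depletion *sox1.S* was called in frog 2 too (−0.46, adjusted p = 0.0272). In frog 1 it was at 101% (window) and 108% (persistent) of control. At 7.5 hpf in frog 1 *tbx3.L* averaged 1 scaled TPM or more only in Control+IAA embryos, the reference of its call. It may have passed the filter through that group alone, which favours a lower call. The median change of the members was −0.18 and −0.17, beside 0.00 and 0.01 for all genes. The counts rest on single pools. In frog 1 they fell to 1 without the first Treated+IAA pool and to 3 without the third Control+IAA pool. In frog 2 they were 6, 5 and 6 without the first or second Treated+IAA or the third Control+IAA pool. They were 1 and 6 with a pseudocount of 0.1, and 7 in frog 2 with no scaling. A fit of the 6 libraries alone called 0 in frog 1 and 2 in frog 2.

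Persistent depletion at 7.5 hpf lowered 4 members in frog 1, all of the mesoderm group, and 11 in frog 2, where 1.45% and 4.06% of all genes were lower. *eomes.L*, *eomes.S* and *tbxt.S* were called in both frogs. Frog 2 had 2 endoderm, 4 mesoderm and 5 ectoderm genes among its 11, and 1 member rose, *sox5.L*, with 2.17, 2.62 and 2.02 in Treated−IAA pools, against 1.35, 1.16 and 1.6 in Control−IAA pools (0.46 ± 0.12, adjusted p = 0.0167, beside 3.14% of all genes that rose). This call was lost without the second Treated−IAA or the second Control−IAA pool and in a fit of the 6 libraries alone. In frog 1, 0 members rose, beside 0.55% of all genes. *sox5.L* changed by −0.20 in frog 1. The members' medians were −0.25 and −0.13, beside 0.00 for all genes in each frog. Without the third Control−IAA pool the total called, in either direction, was 0 in frog 1 and 5 in frog 2. It was 0 in frog 1 without the first or the third Treated−IAA pool and 7 in frog 2 without the second. In frog 1 it was also 0 with no scaling, 0 with a pseudocount of 0.1 and 0 in a fit of the 6 libraries alone. In frog 2 it was 7 with that pseudocount and 0 in the fit of 6 libraries, and no scaling gave 8 lower and 2 higher.

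At 6.5 hpf persistent depletion lowered 2 members in frog 1 (*eomes.L* and *eomes.S*) and 7 in frog 2, with 0.154% and 1.46% of all genes lower. Window depletion lowered 6 in frog 2 (1.18% of all genes), and limma called 0 in frog 1 (0.26% of all genes were lower), where 6 members had an unadjusted p under 0.05. In frog 1 that count was 2 without the first Treated+IAA or the second Control+IAA pool. The frog 2 count was 2 without the first Treated+IAA pool and 3 without the third pool of either group.

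Both onset classes held genes that fell. Of the 10 zygotic genes, window depletion at 7.5 hpf lowered 3 in frog 1 and 6 in frog 2, and persistent depletion 3 and 8, with median changes of −0.51, −0.62, −0.52 and −0.70. Over all genes tested 1.14% and 3.27% were lower after window and 1.45% and 4.06% after persistent depletion, with medians of 0.00, 0.01, 0.00 and 0.00. Of the 9 maternal genes it lowered 0 and 2 (window) and 0 and 1 (persistent), beside those same shares of all genes, with medians of −0.06, 0.00, 0.01 and −0.05. The maternal genes called in frog 2 were *sox11.S* and *sox15.L* (window) and *sox15.L* (persistent). These classes were set from wild type libraries, which are on neither side of the treated against control comparisons. The wild type libraries did enter the scaling factors, the filter and the estimate of spread. The classes differ in level at 5.5 hpf by definition, and the part of level in these counts was not tested.

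The 2 schemes were compared directly at 7.5 hpf. limma called 0 of the members for a difference between the window and the persistent change in either frog, with 0 at an unadjusted p under 0.05 in frog 1 and 4 in frog 2, beside 0.00964% and 0% of all genes called. These 4 were *eomes.L* (0.55 ± 0.21, the persistent loss being larger), *sox8.L* (−0.59 ± 0.23), *sox5.L* (−0.41 ± 0.18) and *sox11.S* (−0.16 ± 0.07), with adjusted p = 0.489, 0.518, 0.545 and 0.545. For *tbxt.S* the difference was −0.23 ± 0.35 in frog 1 and 0.13 ± 0.32 in frog 2, and for *sox17a.L* −0.27 ± 0.28 and 0.11 ± 0.22.

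Several of the same genes differed between Control−IAA and wild type embryos. These comparisons use the Control−IAA pools that also serve as reference for persistent depletion. At 7.5 hpf *tbxt.S* was lower in Control−IAA than in wild type embryos, with 10.2, 9.65 and 20.2, against 29.7, 28.2 and 19.4 in frog 1, and 2.68, 5.24 and 12.6, against 14.1, 12.6 and 14.3 in frog 2. These values touch or overlap through the third Control−IAA pool, and the changes were −0.95 ± 0.25 and −1.11 ± 0.23 (adjusted p = 0.0125 and 0.00154). The frog 1 call was lost without any of 4 of the 6 pools and with a pseudocount of 0.1, the frog 2 call without the first Control−IAA pool, and both in a fit of the 6 libraries alone. *sox17b.1.L* went the other way. It had 166, 153 and 151 in Control−IAA pools of frog 1, against 79.8, 63.4 and 71.8 in wild type pools, and 115, 112 and 106 in Control−IAA pools of frog 2, against 60, 52.2 and 53.4 in wild type pools. The groups were far apart (1.12 ± 0.19 and 0.99 ± 0.12, adjusted p = 4.26e-05 and 4.6e-07), and *sox17a.L* beside it changed by 0.21 and 0.09.

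In all, control injection lowered 7 members in frog 1 and 4 in frog 2 at 7.5 hpf (1.51% and 1.43% of all genes) and raised 3 and 2 (3.67% and 2.58% of all genes). *tbxt.S*, *sox21.L* and *sox9.S* were lower and *sox17b.1.L* and *sox4.L* higher in both frogs. *sox4.L* had 14.1, 13.9 and 11.1 in Control−IAA pools of frog 1, against 8.25, 9.32 and 10.4 in wild type pools (0.44 ± 0.10), and changed by 0.38 in frog 2 (adjusted p = 0.0263). Its call was lost in both frogs with no scaling and with the 6 libraries alone, and in frog 2 without any of 5 of the 6 pools. That of *sox21.L* was lost in both frogs with a pseudocount of 0.1, and in frog 2 without any of 4 of the 6 pools. The frog 1 total of 10 became 5 without the first or the second Control−IAA pool and 6 without the second wild type pool, and the frog 2 total of 6 became 2 without the first and 10 without the third Control−IAA pool. With no scaling 4 were lower and 1 higher in frog 2 at 7.5 hpf. At 6.5 hpf 1 member was lower and 4 higher in frog 1 (0.501% and 1.59% of all genes), a total that became 3 without the second or the third Control−IAA pool, and with no scaling 5 were lower and 4 higher. In frog 2 0 were lower and 1 was higher (0.113% and 0.656% of all genes), with 8 members at an unadjusted p under 0.05. *sox17b.1.L* was higher in both frogs at 6.5 hpf (1.04 and 0.88).

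Some genes of the same pathways were called lower as well. The list of such genes held, among others, the Nodal ligands and their transducers *foxh1* and *smad2*, the Mix and Bix homeobox genes, *gata4*, *gata5* and *gata6*, *foxa4*, *gsc*, *wnt8a*, *fgf4*, *fgf8*, *cer1*, *gdf1* and *ctnnb1*. Of 38 tested in each frog, window depletion at 7.5 hpf lowered 14 in frog 1 and 11 in frog 2, with 7 in both, and persistent depletion lowered 9 and 16, with 7 in both. Of all genes tested 1.14% and 3.27% were lower after window and 1.45% and 4.06% after persistent depletion. The median changes of the list were −0.47, −0.27, −0.48 and −0.45, beside 0.00, 0.01, 0.00 and 0.00 for all genes. *gata6.S*, an endoderm GATA factor, changed by −1.35 and −0.63 after window depletion (adjusted p = 1.25e-06 and 0.011), and *wnt8a.L*, a ventral Wnt ligand, by −1.26 and −1.04 (adjusted p = 0.000147 and 0.00123). The partners that rose were *fgf4.S* and *nodal6.L*, in frog 2 under persistent depletion (0.92 and 0.53), where 3.14% of all genes rose. *gata6.S*, *wnt8a.L*, *fgf4.S* and *nodal6.L* were picked for their values. Of the list, 24 and 27 genes were not called after window and 29 and 20 after persistent depletion at 7.5 hpf. The list was chosen with earlier results of these data known, so its counts are no independent support. Unlike those of the members, its calls were not checked with single pools left out or with other settings.

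Of the 61 genes, 28 had a mean under 1 scaled TPM in every group of both frogs. Among them were *sox10.L* and *sox10.S*, which act in neural crest, both *tbx5* and *tbx4* copies, which act in heart and limb buds, both *sox18* copies and *tbx22*, *tbx18*, *tbx15*, *tbx1*, *tbx20*, *tbx21* and *tbr1*. *tbx5.L* and *tbx5.S* were at or under 0.0495 in every group. They lie 177759 and 141560 bases from *tbx3.L* and *tbx3.S*, of which *tbx3.S* averaged 1 or more in wild type embryos of both frogs at 7.5 hpf. *tbx3.L* had 0.722 ± 0.301 in Treated+IAA embryos of frog 1 at 7.5 hpf, against 1.56 ± 0.454 in Control+IAA embryos, and was under 1 in each group of frog 2. The depth of the libraries is unknown, so these low values carry no detection limit. The 5 genes that only share the first letters gave 0 calls by limma in any treated against control comparison (3 tested in frog 1 and 4 in frog 2).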

How the data were processed

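RNA of *X. laevis* embryo pools was sequenced, and the authors quantified it with kallisto 0.48 on the Xenbase v10.1 transcripts and summed isoforms with tximport into the deposited TPM values, 1 table for each frog. TPM keeps no read depth, so no count test was run and no detection limit is given. Entries with the same name were summed. Each library was divided by a median-ratio factor from genes that averaged 10 TPM or more and had no zero (11364 genes in frog 1 and 11172 in frog 2). Genes with at least 1 scaled TPM in 3 libraries were tested on log2(scaled TPM + 1) with limma 3.58.1 in R 4.3.3, a two-sided moderated test with a trended prior and 30 residual degrees of freedom, per frog, with Benjamini-Hochberg adjustment over 20744 and 20428 genes. The fit was tested on simulated data.

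Members, germ layer groups and partner lists were chosen with earlier results of these data known. Genes named were the *vegt*, *eomes*, *tbxt*, *tbx6*, *mga*, *sox17*, *sox7*, *sox18*, *sox11*, *sox4*, *sox12*, *sox15* and *sox21* copies, those called alike in both frogs, and the 6 highest in wild type embryos. Others were named after their values were seen. *sox17b.2* was not analysed here. Positions are from RefSeq, assembly Xenopus_laevis_v10.1. Alternatives were no scaling, a pseudocount of 0.1, no filter, a fit of the compared libraries alone, a replicate block and leaving out each library.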

Additional observations from a re-analysis of the deposited data

Results flagged for a closer look

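*sox17b.1.L* went in opposite directions in the 2 frogs under window depletion at 5.5 hpf, with no overlap of libraries within either frog. In frog 1 the change was −0.88, with 3.45, 3.24 and 4.18 scaled TPM in Treated+IAA pools, against 7.22, 8.89 and 6.43 in Control+IAA pools. In frog 2 it was 0.32, with 2.46, 2.09 and 2.63 in Treated+IAA pools, against 1.71, 1.82 and 1.62 in Control+IAA pools. The difference between the frogs was not tested.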

How the results depend on the processing

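Values below are numbers of the T-box and Sox genes called, in either direction. In frog 1, window depletion at 5.5 hpf gave 2 in the reported fit, 5 with no scaling, 5 with a pseudocount of 0.1, 0 in a fit of the compared libraries alone and 1 to 2 when a library was left out. At 6.5 hpf it gave 0, and 0 to 2 when a library was left out. At 7.5 hpf it gave 6, then 1 with the pseudocount, 0 with the compared libraries alone and 1 to 7 when a library was left out. Persistent depletion at 6.5 hpf gave 2, and 0 with the compared libraries alone. At 7.5 hpf it gave 4, then 0 with no scaling, 0 with the pseudocount, 0 with the compared libraries alone and 0 to 6 when a library was left out. Control injection at 6.5 hpf gave 5, then 9 with no scaling, 3 with the pseudocount, 2 with the compared libraries alone and 3 to 5 when a library was left out. Control injection at 7.5 hpf gave 10, then 4 with the pseudocount, 18 with no filter, 2 with the compared libraries alone and 5 to 11 when a library was left out. Wild type activation at 6.5 hpf gave 11, and 28 with no scaling.

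In frog 2, window depletion at 6.5 hpf gave 6, then 1 with the compared libraries alone and 2 to 6 when a library was left out. Window depletion at 7.5 hpf gave 11, then 7 with no scaling, 6 with the pseudocount, 2 with the compared libraries alone and 5 to 9 when a library was left out. Persistent depletion at 6.5 hpf gave 7, and 3 with the compared libraries alone. Persistent depletion at 7.5 hpf gave 12, then 7 with the pseudocount, 0 with the compared libraries alone and 5 to 14 when a library was left out. Control injection at 6.5 hpf gave 1, then 2 with no filter and 0 with the compared libraries alone. Control injection at 7.5 hpf gave 6, then 3 with the pseudocount, 14 with no filter, 1 with the compared libraries alone and 2 to 10 when a library was left out. Wild type activation at 7.5 hpf gave 22, and 35 with no filter. Without scaling, frog 2 changes turned negative in wild type embryos for *sox4.L* at 6.5 hpf (−0.05) and for *sox11.L* (−0.55), *sox4.S* (−0.15), *vegt.L* (−0.47) and *vegt.S* (−0.37) at 7.5 hpf. The cause of these shifts was not tested, except that a fit of 6 libraries has fewer residual degrees of freedom.

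Of 50 called depletion changes of single genes, 20 were kept in every fit that left out a library, 38 with no scaling, 29 with the pseudocount, 48 with no filter and 6 with the compared libraries alone. No depletion change changed sign under these alternatives. Pool numbers did not pair libraries (correlations of deviations between same-numbered pools of −0.07 to 0.07 in frog 1 and −0.14 to 0.1 in frog 2). With a replicate block, window depletion in frog 1 gave 3 calls at 5.5 hpf and 7 at 7.5 hpf, and 49 of the 50 depletion calls were kept.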
